A study of Homo sapiens with 6 samples.

Results

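A set of 10 genes of lipid uptake, lipid sensing and sterol export was described in NB4 cells, an established human line of acute promyelocytic leukaemia. The set held the scavenger receptors CD36 and SCARB1, the nuclear receptors NR1H2, NR1H3 and PPARG, the exporters ABCA1 and ABCG1, the ubiquitin ligase MYLIP, and the apolipoproteins APOE and APOC2. They were chosen by name from the 61806 genes of the deposited table, because CD36 is switched on in the CD69-overexpressing cells, with lipid genes added around it. The contrast of the groups therefore served in the choice, and the members' values are given as a description without p-values. Of the 6 libraries, 3 were from cells carrying a lentivirus that overexpresses CD69 and 3 from matched vector control cells, whose genotype the labels give as wild-type. All were grown in the same serum-containing medium without drug treatment and collected in log phase, and the labels put them in batch 1. No source used here states separate transductions for the replicates, so each group may be a single transduced population and the p-values given below speak only of the spread among these 6 libraries, which may be technical.

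CD36 is a membrane receptor that takes up long-chain fatty acids and oxidised lipoproteins, and in blood it is known from monocytes, macrophages and platelets. Cholesterol that enters a phagocyte can be converted to oxysterols, the ligands of the liver X receptors (LXR), which pair with retinoid X receptors (RXR) on DNA and induce the exporters ABCA1 and ABCG1, apolipoproteins, and MYLIP, which marks lipoprotein receptors for breakdown. The PPAR receptors respond to fatty acids, also as RXR partners, and PPARG is a known inducer of CD36 and NR1H3 in macrophages.

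The RefSeq promoter table (GRCh38.p14) held 8 of the 10 members. The 250 bases before the start are shown for 3 of them: CD36 and APOC2, which had the highest ratios between the groups, and ABCA1, the textbook LXR target, for contrast. For CD36 the first of 6 tabulated starts was taken. Each is written 5′ to 3′ on the strand of the gene. Capitals mark matches on either strand to the hexamer AGGTCA recognised by nuclear receptors and to its looser direct repeats. These repeats are AGGTNA, then 4 bases for the LXR type or 1 base for the PPAR type, then NGGTCA. Capitals also mark matches on either strand to TATAAA and to GAGGAA, a longer stretch that holds the ETS core GGAA. Matches to the hexamer and to a repeat were counted separately and may overlap.
CD36, chr7:80601957-80602206, plus strand: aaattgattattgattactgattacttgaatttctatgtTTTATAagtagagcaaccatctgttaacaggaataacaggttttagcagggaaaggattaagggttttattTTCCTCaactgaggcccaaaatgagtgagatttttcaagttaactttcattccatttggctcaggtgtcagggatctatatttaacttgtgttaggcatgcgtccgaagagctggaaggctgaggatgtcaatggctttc
APOC2, chr19:44945801-44946050, plus strand: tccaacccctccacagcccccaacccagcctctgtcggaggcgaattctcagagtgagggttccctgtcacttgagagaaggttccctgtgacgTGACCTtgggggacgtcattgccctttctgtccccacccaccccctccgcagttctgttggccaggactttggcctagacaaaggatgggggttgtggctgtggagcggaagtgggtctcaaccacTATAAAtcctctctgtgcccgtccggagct
ABCA1, chr9:104928156-104928405, minus strand: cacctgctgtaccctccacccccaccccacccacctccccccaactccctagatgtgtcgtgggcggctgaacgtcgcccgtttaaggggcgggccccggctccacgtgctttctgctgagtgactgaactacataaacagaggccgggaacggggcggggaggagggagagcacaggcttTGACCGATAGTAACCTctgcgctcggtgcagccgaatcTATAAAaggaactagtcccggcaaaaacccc
The ABCA1 window held the 4-base repeat on the opposite strand, written TGACCGATAGTAACCT here, 69 to 54 bases before the start. That repeat was present in 1 of the 23 windows of the members and in 0.0797% of all 35116 tabulated windows of this length. The PPAR-type repeat was in none of the 23 windows and in 0.0854% of all. AGGTCA on either strand was in 5 of the 23 windows, that of APOC2 among them, and in 12.1% of all. The PPARG windows that start at 12288810 and 12288820 overlap and hold the same match, so the 5 are not separate sites. The letters TATAAA (10.7% of all windows) lay 30 to 25 bases before the APOC2 start and 31 to 26 bases before that of ABCA1, and on the opposite strand in the CD36 window. GAGGAA (23.6% of all windows) was matched in the CD36 window on the opposite strand. A match is only a match of letters, and the counts are per gene and do not show which start was used. GENCODE release 29 gives 19 transcript starts for CD36, 5 for APOC2 and 3 for ABCA1.

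Total counts per library were 51543550 to 57463020. CD69 itself held 80.4, 81.9 and 70.6 CPM (counts scaled to a common library size with TMM factors) among controls and 98.3, 99.1 and 95.7 CPM among overexpressing libraries, which is higher in each of the 3 but by little. Counts per gene do not separate the introduced CD69 sequence from the cells' own. Overexpressing replicate 1 stood apart from replicates 2 and 3 on the first principal component (32.4 against 74.8 and 74.3, controls -61.7 to -59.5). The B cell markers (7 genes) summed to 17.5 to 21.7 CPM among controls, 23.5 CPM for overexpressing replicate 1, but 92.5 and 91.1 CPM for replicates 2 and 3, and the fibroblast and epithelial markers (7 genes) summed to 102 to 115, 106, 38.2 and 25.7 CPM. Of the 7 promyelocyte markers all were detected, but MPO, the myeloperoxidase that usually defines these cells, was at only 0.518 to 1.45 CPM in the 6 libraries, while the granule protease gene CTSG was at 562 to 775 CPM, and the list summed to 1008 to 1265 CPM in control and 2020 to 2430 CPM in overexpressing libraries. In bulk RNA, fewer cells that express a gene and less RNA per cell cannot be told apart.

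CD36 was near silent among controls and clearly present in all overexpressing libraries. It held 27, 29 and 27 counts among controls, which is 0.48, 0.51 and 0.48 CPM, and 1617, 1467 and 1393 counts for overexpressing replicates 1, 2 and 3, which is 28.9, 26.0 and 27.3 CPM. The 6 values thus formed 2 tight and widely separated groups, with the replicate 1 that stood apart elsewhere at the top of its group. The overexpressing mean of 27.4 ± 1.42 CPM was 55.7 times the control mean of 0.492 ± 0.0170 CPM (SD, n = 3), and the fitted log2 fold change was 5.79 (SE 0.13). Of the 10994 genes with a mean of at least 5 CPM, 11 had a larger one. CD36 lies on the plus strand of chromosome 7 (GRCh38, 80369575 to 80679277, ENSG00000135218), and GENCODE shows no other gene over its exons. The only coding gene that starts within 500 kb is GNAT3, a taste-receptor G protein, listed at 0 counts in all libraries.

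Markers of other cell types that express CD36 were low or mixed. The platelet chemokine genes PF4 and PPBP held at most 4 counts in any library and the platelet receptor gene GP9 none. The 7 platelet markers summed to 4.66 to 7.40 CPM among controls and 2.00 to 6.59 CPM among overexpressing libraries. The erythroid marker ALAS2 was at 0 in all 6, and the erythroid list summed to 1.78 to 3.43 against 1.75 to 2.12 CPM. The monocyte and macrophage list of 10 genes summed to 204 to 224 CPM among controls and 175 to 197 CPM among overexpressing libraries, with CD14 at 1.87, 1.87 and 1.87 CPM against 1.91, 0.568 and 0.764 CPM. Within that list FCN1 rose by 1.11 on the log2 scale, and S100A9 and CD68 fell by 1.60 and 0.26. The part of these markers in the CD36 level was not tested, but CD36 was as high for overexpressing replicate 1, where CD14 was at the control level, as in the others. Endothelial and adipocyte markers summed to at most 1.97 CPM.

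The genes whose profiles over the 6 libraries lay closest to that of CD36 were POU2F2, an octamer-binding transcription factor gene, ACTL8, CRACDL, LAMP5, a lysosome-associated membrane protein gene, and EBF3, a transcription factor gene. Likeness was the root mean square difference of centred log2 CPM, among 10993 genes of at least 5 mean CPM, and was 0.287 for POU2F2, 0.298 for ACTL8, 0.305 for CRACDL, 0.332 for LAMP5 and 0.435 for EBF3. POU2F2 went from 1.68, 2.36 and 1.68 to 69.1, 82.4 and 69.0 CPM, a step of the same kind as that of CD36 between groups that do not overlap. LAMP5 went from 4.02, 3.68 and 5.23 to 333, 324 and 334 CPM. With 3 libraries in each of 2 groups, this measure reflects both the size of the step and the spread within the groups.

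SCARB1, the receptor that takes up cholesteryl ester from high-density lipoprotein and belongs to the same family as CD36, went the other way. It held 170, 175 and 177 CPM among controls and 93.0, 94.0 and 90.5 CPM among overexpressing libraries. All overexpressing values lay below all controls with little spread, and the log2 fold change was -0.91 (SE 0.06). SCARB1 lies on the minus strand of chromosome 12 (124776856 to 124882668). It had 354 times the CD36 level among controls on the CPM scale and 3.38 times in the overexpressing cells, before the length of the genes is taken into account.

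Among the nuclear receptors, NR1H3, which encodes LXR alpha, was higher in each overexpressing library, while NR1H2, which encodes LXR beta, overlapped between the groups. NR1H3 (chromosome 11, 47248300 to 47269032) held 3.09, 3.79 and 3.53 CPM among controls and 6.80, 6.12 and 8.52 CPM among overexpressing libraries (log2 fold change 1.04, SE 0.19). Its exons overlap those of ACP2 on the opposite strand, and the libraries were strand-specific per the labels, but whether the counting used strand was not given. NR1H2 (chromosome 19, 50329653 to 50382982) held 36.7, 36.5 and 43.9 CPM against 33.2, 32.4 and 37.3 CPM, where overexpressing replicate 3 lies within the range of the controls (log2 fold change -0.19, SE 0.10). PPARG (chromosome 3, 12287368 to 12434356) was lower in every overexpressing library, with 16.5, 15.8 and 14.8 CPM among controls against 11.4, 11.4 and 11.7 CPM (log2 fold change -0.45, SE 0.10).

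Per kilobase of annotated exon, NR1H2 remained the main LXR transcript. NR1H3 made up 6.89 ± 0.896% of the summed LXR level (CPM per kilobase) among controls and 14.6 ± 1.19% among overexpressing libraries (SD, n = 3), while the sum was 11.2 ± 1.13 against 10.7 ± 0.975 CPM per kilobase. For the PPAR genes, the summed level went from 10.4 ± 0.438 to 36.3 ± 2.43 CPM per kilobase, and PPARD, the broadly expressed delta receptor, from 6.11 ± 0.265 to 32.5 ± 2.30 CPM per kilobase (SD, n = 3). PPARG made up 33.4 ± 1.40% of that sum among controls and 7.01 ± 0.587% among overexpressing libraries, and PPARD 58.8 ± 2.15% and 89.3 ± 0.378%. For the RXR genes, the summed level was 34.9 ± 2.10 among controls and 30.3 ± 0.506 CPM per kilobase among overexpressing libraries (SD, n = 3). RXRB made up 52.6 ± 1.47% of that sum among controls and 71.0 ± 0.570% among overexpressing libraries, and RXRA nearly all of the rest. These shares depend on the union of all annotated exons, which can be longer than the transcripts the cells make.

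**Figure D1:**
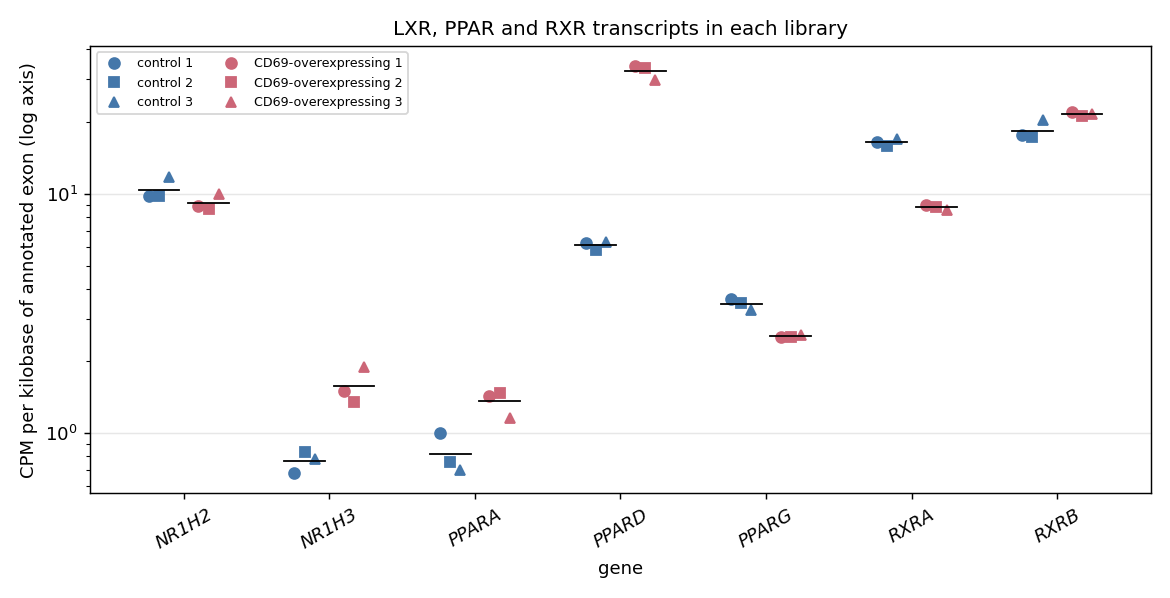
Levels of the LXR (NR1H2, NR1H3), PPAR (PPARA, PPARD, PPARG) and RXR (RXRA, RXRB) transcripts in CPM per kilobase of annotated exon on a log axis, with a point per library, black lines for the group means, controls in blue and CD69-overexpressing libraries in red. PPARD is above every control in all 3 overexpressing libraries, RXRA is below every control, and NR1H2 overlaps between the groups.

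The receptors' partners and cofactors were tested, since they are not members of the set. Over all 19485 genes tested, 24.1% passed the threshold (p under 0.05 in the quasi-likelihood test of edgeR, adjusted by Benjamini-Hochberg), 14.2% higher and 9.94% lower. Of 21 tested partners and cofactors, 4 rose and 3 fell, a median log2 fold change of -0.07 against 0.01 over all genes tested, and 2 rose when overexpressing replicate 2 was left out. PPARD rose from 27.8, 25.9 and 28.0 to 152, 149 and 133 CPM (log2 fold change 2.41, SE 0.08, edgeR adjusted p = 2.9e-06). RXRA, a partner of LXR and PPAR receptors, fell from 182, 175 and 187 to 99.6, 97.4 and 94.9 CPM (log2 fold change -0.90, SE 0.06, edgeR adjusted p = 7.3e-05). RXRB, the larger RXR transcript per kilobase, held 68.9, 67.6 and 79.2 against 85.7, 82.5 and 84.6 CPM without passing the test. The coactivator gene PPARGC1A rose from 7.78 ± 0.957 to 21.7 ± 3.02 CPM (SD, n = 3) and NCOA3 and PPARA also rose, by 0.55 and 0.73 on the log2 scale. The vitamin D receptor gene VDR fell by 0.51 on the log2 scale. PPARA lost its call without overexpressing replicate 2 or control replicate 2, and NCOA3 when any 1 overexpressing replicate was left out.

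The exporters did not move together. ABCA1 (chromosome 9, 104781002 to 104928237), which loads cholesterol onto lipid-poor apolipoprotein, held 84, 117 and 127 counts against 66, 54 and 65 counts, which is 1.94 ± 0.397 against 1.14 ± 0.162 CPM (SD, n = 3). The groups did not overlap, but the gap between them was smaller than the spread of the controls (log2 fold change -0.77, SE 0.26). ABCG1 (chromosome 21, 42199689 to 42297244), which passes cholesterol to high-density lipoprotein, held 0.482, 0.299 and 0.339 CPM against 0.214, 0.674 and 1.04 CPM. Overexpressing replicate 1 lay below every control and replicates 2 and 3 above, the same 2 libraries in which the B cell markers were high, and the part of those markers in the value was not tested. Its log2 fold change was 0.78 (SE 0.58), and -0.80 for overexpressing replicate 1 alone against the controls. With 12 to 53 counts in a library, the ABCG1 values also carry a large counting error. MYLIP (chromosome 6, 16129125 to 16148248) held 46.2, 46.6 and 41.1 CPM among controls and 48.6, 49.5 and 42.8 CPM among overexpressing libraries, which overlap (log2 fold change 0.07, SE 0.09).

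The apolipoproteins APOE and APOC2, whose genes lie in 1 cluster on chromosome 19, also differed from each other. APOE (44905754 to 44909393), the ligand through which remnant particles bind their receptors, held 1.68, 1.23 and 1.62 CPM among controls and 1.93, 1.58 and 1.63 CPM among overexpressing libraries, which overlap (log2 fold change 0.18, SE 0.24). An exon of an unnamed gene overlaps APOE on its strand. APOC2 (44945982 to 44949565), the cofactor that activates lipoprotein lipase, held 39, 49 and 42 counts among controls and 1228, 1050 and 264 counts among overexpressing libraries. In CPM these were 0.696, 0.864 and 0.749 against 21.9, 18.6 and 5.17, so that all 3 overexpressing libraries were higher but replicate 3 lay far below the others (log2 fold change 4.30, SE 0.53).

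This spread came with the opposite spread in APOC4-APOC2, a read-through gene that shares the APOC2 exons. It held 14, 0 and 0 counts among controls and 170, 232 and 1378 counts for overexpressing replicates 1, 2 and 3. APOC2 had 87.8%, 81.9% and 16.1% of the counts of the pair in those libraries. The sum of both genes was 0.946, 0.864 and 0.749 CPM among controls and 25.0, 22.7 and 32.2 CPM among overexpressing libraries, so the highest overexpressing value was 1.41 times the lowest, against 4.24 times for APOC2 alone. Adding the counts was an alternative chosen once the data had been seen, and its log2 fold change was 4.96 (SE 0.19). How reads over the shared exons were assigned was not given in the sources used here.

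**Figure D2:**
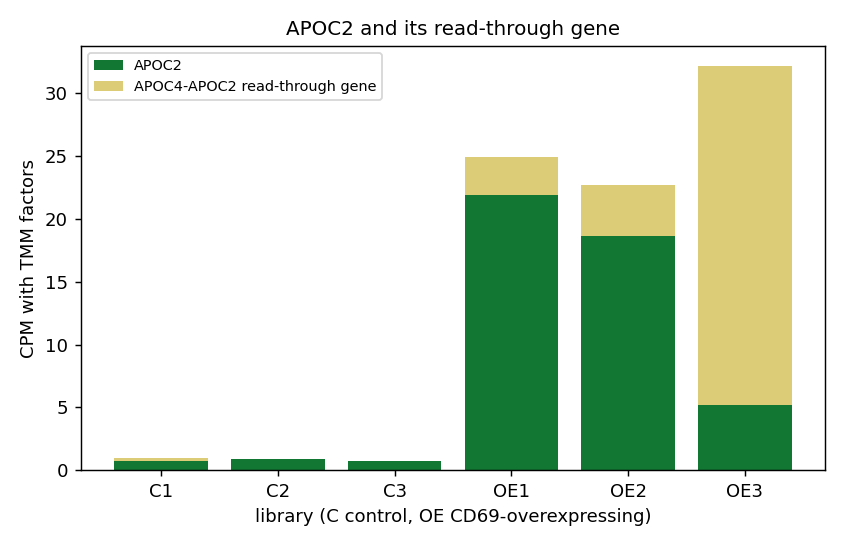
Level of APOC2 (green) and of the read-through gene APOC4-APOC2 (yellow) in CPM for each library, stacked from 0. The 2 genes together reach 22.7 to 32.2 CPM among overexpressing libraries (OE) and at most 0.946 CPM among controls (C), and overexpressing replicate 3 differs from the others in how the counts are divided.

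Around the apolipoprotein cluster, 24 further coding genes within 500 kb of APOE or APOC2 were tested, of which 4 rose and 2 fell. These counts are near the shares over all genes tested, of which 14.2% rose and 9.94% fell. Besides the read-through gene, TRAPPC6A rose by 0.71, BLOC1S3 by 0.34 and ERCC2 by 0.25 on the log2 scale, and the NF-kB subunit gene RELB fell by 0.50 and CLASRP by 0.36. The call of APOC4-APOC2 was lost under limma-voom (adjusted p = 0.169) and with overexpressing replicate 1 alone (edgeR adjusted p = 0.0915), over a range of 0.00520 to 0.169 in all its alternatives. The calls of BLOC1S3 and ERCC2 were lost without any 1 library other than control replicate 3, and that of RELB without overexpressing replicate 1 or 2. APOC1, which lies between APOE and APOC2, held 11, 16 and 18 counts against 13, 13 and 0. Within 500 kb of ABCA1, 3 coding genes were tested, and NIPSNAP3B rose by 1.34 (SE 0.16) and NIPSNAP3A by 0.54 (SE 0.10) on the log2 scale, while ABCA1 itself was lower. The median log2 fold change of coding genes of at least 5 CPM was 0.03 on chromosome 7, -0.02 on chromosome 19 and -0.04 on chromosome 9, against -0.01 over all.

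Of the 10 members, all of which passed the filter on low counts, 3 were higher in every overexpressing library than in every control (CD36, NR1H3 and APOC2), where 23.0% of all genes tested were, 3 were lower (SCARB1, ABCA1 and PPARG), where 19.3% were, and 4 overlapped. At least 2-fold higher were CD36, APOC2 and NR1H3, against 8.82% of all genes tested, and none was at least 2-fold lower, against 5.69%. The members were chosen on this contrast, so nothing is read from these counts. Their median log2 fold change was 0.13 against 0.01 over all genes tested.

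**Figure D3:**
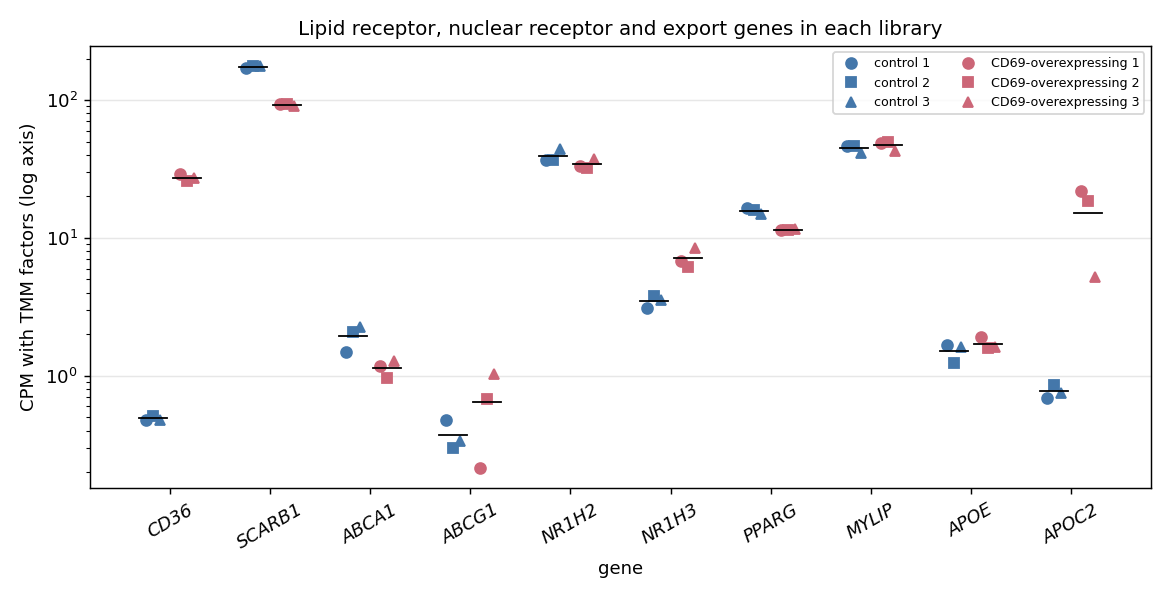
CPM of the 10 genes in each library on a log axis, with a point per library, black lines for the group means, controls in blue and CD69-overexpressing libraries in red. CD36 goes from about 0.5 to between 26.0 and 28.9 CPM, SCARB1 from at least 170 to at most 94.0 CPM, and overexpressing replicate 3 stands apart for APOC2 and replicate 1 for ABCG1.

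Compared per kilobase of annotated exon, the order of the levels among controls was SCARB1 (22.5), MYLIP (14.7), NR1H2 (10.4), PPARG (3.47), NR1H3 (0.766), APOE (0.690), APOC2 (0.585), ABCA1 (0.171), ABCG1 (0.0610) and CD36 (0.0452 CPM per kilobase). Among neighbours in this order, the ranges of NR1H3 and APOE and of APOE and APOC2 overlapped. Among overexpressing libraries MYLIP had the highest mean with 15.5 CPM per kilobase, before SCARB1 (11.9), APOC2 (11.6), NR1H2 (9.14), PPARG (2.54), CD36 (2.52), NR1H3 (1.58), APOE (0.781), ABCG1 (0.105) and ABCA1 (0.100 CPM per kilobase). There the range of APOC2 (3.93 to 16.7 CPM per kilobase) overlapped those of MYLIP, SCARB1 and NR1H2, which did not overlap each other. The ranges of PPARG and CD36 and of ABCG1 and ABCA1 overlapped. CD36 thus went from the lowest level of the 10 to about that of PPARG, and the exons annotated for it sum to 10880 bases, so its level per kilobase may be understated.

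Of 18 other LXR targets 11 were tested, and 2 rose, none fell and 9 did not pass, so that 18.2% were called against 24.1% of all genes tested (median log2 fold change 0.03). The list had 1 lower gene without overexpressing replicate 3 and under DESeq2, limma-voom, counts divided by 4 and the filter of 50 counts. MERTK, a receptor for apoptotic cells, rose from 9.80, 11.5 and 9.14 to 35.8, 33.4 and 33.6 CPM (log2 fold change 1.76, SE 0.11, edgeR adjusted p = 5.4e-05). The fatty acid desaturase gene SCD, which is very abundant, rose from 1133 ± 81.4 to 1587 ± 86.0 CPM (SD, n = 3), by 0.49 on the log2 scale (SE 0.07). SMPDL3A, a phosphodiesterase gene known to be induced by LXR, held 4.82, 4.57 and 4.28 against 2.45, 2.41 and 3.64 CPM, every overexpressing value below every control, without passing (log2 fold change -0.69, SE 0.22, edgeR adjusted p = 0.0550). Others that did not pass included SREBF1, the lipogenic factor gene and a standard LXR target, at 206, 194 and 232 against 192, 196 and 193 CPM, and FASN at 611 ± 4.77 against 623 ± 69.8 CPM (SD, n = 3). ABCG5, ABCG8, APOC4, APOD, CETP, CD5L and CYP7A1 were too low to test.

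Genes induced by PPAR receptors had 1 higher and 4 lower of 12 tested (median log2 fold change -0.14). Thus 41.7% were called, against 24.1% of all genes tested. The number lower was 2 without overexpressing replicate 1 or 2 or control replicate 1 or 2, and none was higher without overexpressing replicate 1 or 2 or control replicate 1. PLIN2, the main lipid droplet coat gene, fell from 49.5, 51.7 and 53.2 to 34.8, 27.4 and 30.9 CPM (log2 fold change -0.73, SE 0.10, edgeR adjusted p = 0.00158). The mitochondrial fatty acid oxidation genes CPT1A and ACADVL fell by 0.28 and 0.33 on the log2 scale, and PLIN4, another droplet coat gene, rose by 1.13 from about 1 CPM. ANGPTL4, an inhibitor of lipoprotein lipase, held 3.16, 2.19 and 2.09 CPM among controls and 2.86, 0.390 and 0.470 CPM for overexpressing replicates 1, 2 and 3, and did not pass. The call of CPT1A was lost without overexpressing replicate 1 or 3 or control replicate 1 or 2, that of ACADVL without overexpressing replicate 1 or 2, and that of PLIN4 without overexpressing replicate 1 or 2 or control replicate 1.

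Other scavenger receptors had 4 higher and 1 lower of 12 tested (median log2 fold change 0.14). The share called was 41.7%, against 24.1% of all genes tested. Leaving out overexpressing replicate 3 gave 2 higher, leaving out overexpressing replicate 1 gave 2 lower, and none was lower without overexpressing replicate 2 or 3 or control replicate 1 or 2. CD163L1 rose from 11, 47 and 19 counts to 333, 334 and 407 counts (log2 fold change 3.85, SE 0.49, edgeR adjusted p = 0.00120). CXCL16, a chemokine that also binds oxidised lipoprotein, rose from 1.81 ± 0.478 to 5.35 ± 0.340 CPM (SD, n = 3). MARCO rose by 1.54 and SCARF1 by 2.15 on the log2 scale, both with lower values for overexpressing replicate 1 (1.48 and 0.428 CPM) than in replicates 2 and 3 (3.48 and 3.06, and 0.976 and 1.39 CPM), the libraries with high B cell markers, whose part in these values was not tested. CD68 fell by 0.26, a call lost without any 1 library other than control replicate 3. MARCO and SCARF1 lost theirs without overexpressing replicate 2 or 3 or control replicate 1 or 2. SCARB2, the lysosomal relative of CD36 and SCARB1, held 79.8, 78.5 and 67.8 against 80.1, 79.8 and 68.9 CPM. MSR1, the class A receptor, was at no more than 30 counts.

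Among the enzymes that make or clear sterol ligands, 2 rose and 2 fell of 6 tested. That is 66.7% called, against 24.1% of all genes tested, and it rests on few genes. Only 1 fell when any library other than control replicate 3 was left out. CYP46A1, the cholesterol 24-hydroxylase, fell from 48.7, 48.1 and 48.3 to 16.6, 17.4 and 17.0 CPM (log2 fold change -1.51, SE 0.07, edgeR adjusted p = 1.5e-05). DHCR7, of the last step of cholesterol synthesis, rose by 0.57 on the log2 scale. SULT2B1, a sterol sulfotransferase, rose by 2.01 from 16 to 20 counts among controls to 45 to 102 counts. CH25H, the 25-hydroxylase, was at 0 in all libraries other than overexpressing replicate 2, which held 8 counts.

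Other genes of sterol transport and storage had 8 higher and 2 lower of 28 tested (median log2 fold change 0.06). Of the 28, 35.7% were called, against 24.1% of all genes tested. There were 5 higher without overexpressing replicate 2 or 3 or control replicate 1, and 5 lower without control replicate 3. NPC1, through which cholesterol leaves the lysosome, rose from 50.1, 49.3 and 39.9 to 147, 151 and 131 CPM. STARD5, a sterol-binding protein gene, rose from 7.71 ± 0.171 to 29.9 ± 4.84 CPM and OSBPL5, of the oxysterol-binding protein family, from 50.6 ± 2.33 to 111 ± 7.94 CPM (SD, n = 3). The cholesterol esterifying enzyme SOAT1 fell from 82.9, 89.9 and 77.5 to 55.4, 60.2 and 58.8 CPM (log2 fold change -0.52, SE 0.08, edgeR adjusted p = 0.00245). SOAT2 held 22, 20 and 21 counts among controls and 0 in each overexpressing library. Set against 3 counts per overexpressing library, the control mean was 6.77 times as high. A fragment may stand for about 4 counts, so this ratio is no lower bound. The ABC transporters of the same families, ABCA2, ABCA3, ABCA5, ABCA7 and ABCG2, did not pass the test, nor did NPC2 and STARD3.

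MYLIP acts on lipoprotein receptors, and of these VLDLR fell while LRP8 did not pass. VLDLR held 113, 105 and 99.4 CPM among controls and 80.3, 83.1 and 73.0 CPM among overexpressing libraries (log2 fold change -0.43, SE 0.08, edgeR adjusted p = 0.00682). In the list of these receptors and their sterol control, 3 rose and 1 fell of 10 tested, or 40.0% called against 24.1% of all genes tested. The sterol sensors INSIG1 and INSIG2 rose, INSIG1 by 1.38 (SE 0.06) and INSIG2 by 1.18 (SE 0.09) on the log2 scale.

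Fatty acid uptake and storage genes had 3 higher and 5 lower of 24 tested (median log2 fold change 0.15). Of the 24, 33.3% were called, against 24.1% of all genes tested. The balance turned to 6 higher and 5 lower without control replicate 3 and to 4 higher and 3 lower without overexpressing replicate 3. It was 3 and 3 without overexpressing replicate 2 or control replicate 1, and 2 and 3 without control replicate 2. PLIN3, a droplet coat gene, rose from 98.8, 96.5 and 108 to 178, 165 and 175 CPM (log2 fold change 0.77, SE 0.07, edgeR adjusted p = 0.000265), in contrast to PLIN2. ACSL4 and SLC27A2, which activate fatty acids, rose by 0.56 and 0.54, the latter without a call when control replicate 2 was left out. DGAT2, which makes triglyceride, fell by 0.51, SLC27A4 by 0.54 and CPT1B by 0.88 on the log2 scale.

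CD36 partners had 3 higher and 2 lower of 15 tested (median log2 fold change -0.09). The share called was 33.3%, against 24.1% of all genes tested. Without control replicate 1 none was higher, without control replicate 3 there were 4 lower, and 1 was lower without overexpressing replicate 2 or 3 or control replicate 1 or 2. FYN, a Src family kinase that associates with CD36, fell from 46.7, 46.5 and 46.0 to 16.3, 14.8 and 17.8 CPM (log2 fold change -1.51, SE 0.09, edgeR adjusted p = 4.3e-05). The related kinase YES1 rose by 0.71 from 4.97 ± 0.689 to 8.13 ± 0.564 CPM (SD, n = 3), and LYN, at 121, 119 and 114 against 104, 109 and 104 CPM, did not pass. CD9, a tetraspanin, rose by 0.80, ZDHHC5, which palmitoylates CD36, by 0.26, and TLR6, a co-receptor, fell by 0.88 on the log2 scale. Of these calls, CD9 lost its own without overexpressing replicate 3 or control replicate 1, YES1 without control replicate 1, TLR6 without overexpressing replicate 2 or 3 or control replicate 1 or 2, and ZDHHC5 without overexpressing replicate 1 or 2 or control replicate 1 or 2. THBS1, thrombospondin and a CD36 ligand, held 15.9, 22.2 and 19.9 CPM among controls, 19.1 CPM for overexpressing replicate 1, and only 4.70 and 6.86 CPM for the other 2.

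**Figure D4:**
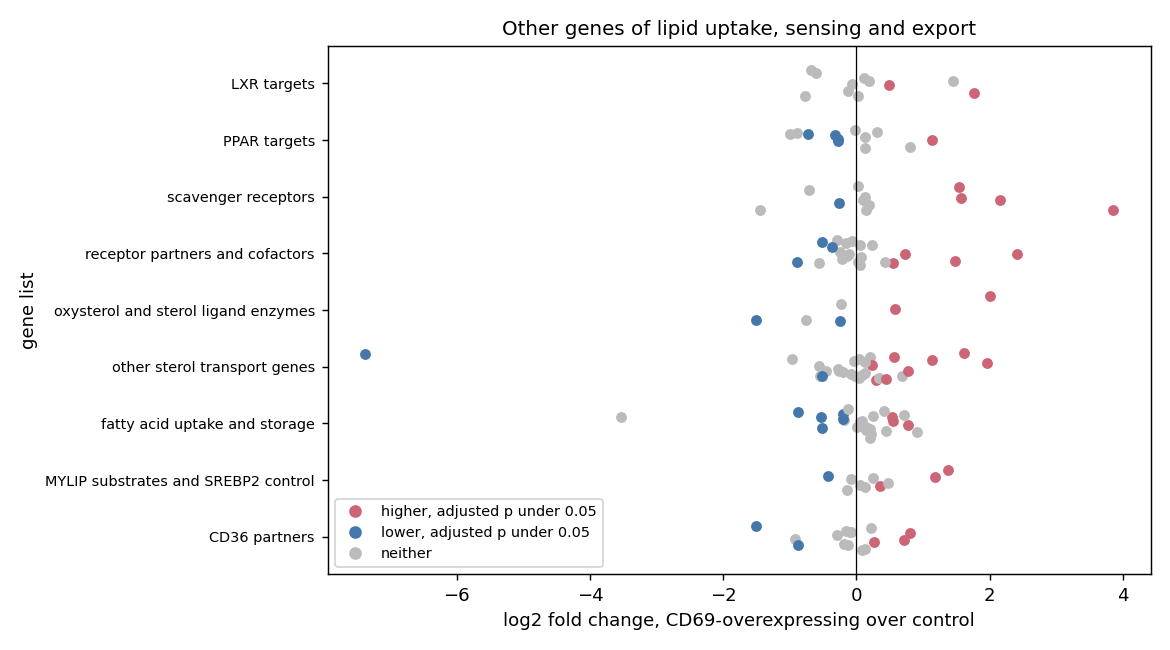
Fitted log2 fold change (CD69-overexpressing over control) of each tested gene in the 9 lists around the 10 members, which are left out; red and blue mark genes that rose or fell at adjusted p under 0.05 and grey those that did not pass. Every list other than that of LXR targets holds genes in both directions, and the point at the far left is SOAT2, whose fitted value rests on 0 counts among overexpressing libraries and is no bound.

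Over the 9 lists together 30 genes rose and 20 fell of 139 tested, which is 36.0% against 24.1% of all genes, with 33 listed genes too low to test. The lists were written with earlier results of these data known, and the share is not a test of them. With overexpressing replicate 1 alone against the controls, 12 rose and 3 fell. The 12 were MERTK, CD163L1, PPARD, PPARGC1A, DHCR7, NPC1, STARD5, OSBPL2, OSBPL5, PLIN3, INSIG1 and INSIG2, and the 3 were RXRA, CYP46A1 and FYN. The number that fell was 13 without control replicate 1 or overexpressing replicate 2 and 12 without control replicate 2. Part of the counts is uncertain where exons are shared with a gene on the same strand, here CD163L1 with CD163, CPT1B with a read-through gene, TLR6 with TLR1, ACSL4 with KCNE5, and STARD5 and CD68 each with an unnamed gene, and for genes with exons opposite those of another, among them NPC1, STARD5, CXCL16, PLIN4, ACADVL and SLC27A2.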

How the data were processed

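Poly(A) RNA of 6 NB4 libraries was read in pairs of 150 bases on a NovaSeq, per the labels' protocols. The authors deposited 1 table of estimated counts per gene, made with FastQC, fastp, STAR and featureCounts (Subread) on GRCh38 (hg38), per the submitters' processing notes. For versions, annotation, strand setting and what was counted, the entry is: not given in the sources used here. All values were whole, so rounding changed nothing. In each library 1403 to 1496 genes held exactly 4 counts and 761 to 824 held 3, so a fragment may stand for about 4 counts, and depth may be lower than the totals. Within groups, every pair of libraries differed beyond sampling noise, with a chi-square over its degrees of freedom of 2.29 to 14.1 after dividing counts by 4.

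Genes passing filterByExpr (19485) were scaled by TMM and tested with edgeR 4.0.16 (glmQLFit, glmQLFTest, R 4.3.3). Tests were two-sided, and p-values were adjusted by Benjamini-Hochberg over all genes tested, with a threshold of 0.05. Standard errors are the log2 fold change over the root of the F statistic. Levels are CPM with TMM factors, and levels per length divide by the union of GENCODE release 29 exons. The test was checked on simulated counts. Members and lists were chosen with earlier results of these data known. Named genes are all members, up to 3 genes per list and direction with the smallest p, the 3 most abundant called pathway genes, the 5 genes most like CD36 and called coding neighbours within 500 kb of CD36, ABCA1 and the APOE to APOC2 cluster. Others, such as SREBF1, FASN, SMPDL3A, SCARB2, SCARF1, NCOA3, OSBPL2, ANGPTL4, THBS1 and the markers, were named after their values were seen. Some genes that the rule or the lists take in are counted but not reported by name here. Tried besides were DESeq2 1.42.0 and limma-voom 3.58.1, scaling by RLE, by the upper quartile or not at all, testing without a filter or with at least 50 counts in 3 libraries, a replicate block, glmTreat for changes past 1.2-fold, counts divided by 4, a prior count of 2, each library left out and overexpressing replicate 1 alone. Figures were drawn with matplotlib 3.10.9.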

Additional observations from a re-analysis of the deposited data

How the results depend on the processing

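The direction of every member held under all alternatives other than that of ABCG1, whose log2 fold change was -0.80 with overexpressing replicate 1 alone. CD36 moved beyond its replicate spread only with a prior count of 2 (5.70). Against a fold of 1.2, 1723 genes were higher and 874 lower over all genes, and 10 pathway genes were lower. With overexpressing replicate 1 alone, 797 and 380 genes and 12 and 3 pathway genes were called. Leaving out each library in turn gave 1783 to 2917 higher and 1137 to 2226 lower genes, and 21 to 38 higher and 12 to 23 lower pathway genes. The cause of these changes was not tested. Deviations from the group means correlated weakly across genes between same-numbered libraries (r of -0.03, 0.05 and 0.07) and between the other pairs (-0.09 to 0.05). With 3 libraries per group, these values cannot show whether the numbers pair libraries. With the replicate number as a block, 3194 and 2669 genes and 35 and 26 pathway genes were called. Of 48 named pathway and neighbour genes, 15 kept their call in every alternative that gave an adjusted p. Other scalings moved the median log2 fold change of all genes by at most 0.02. Depth limits ABCG1, ABCA1 and APOE, with 12 to 127 counts per library.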

Other observations

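Among the 129 members and pathway genes of at least 1 mean CPM, 2 were at least 2-fold lower in both overexpressing replicates 2 and 3 than in each of the other 4 libraries, ANGPTL4 and THBS1, and 1 was at least 2-fold higher, MARCO. None was a member. These were chosen after their values were seen. LRP1, the large endocytic receptor of apolipoprotein E particles, held 16.5, 16.9 and 15.7 CPM among controls, 16.3 CPM for overexpressing replicate 1, but 5.11 and 8.60 CPM for replicates 2 and 3. OLR1, the lectin-like receptor of oxidised lipoprotein, held 1.23, 1.23 and 1.37, then 1.05, and 0.124 and 0.215 CPM. For ANGPTL4, THBS1 and LRP1 overexpressing replicate 1 lay within the range of the controls. It lay below every control for OLR1 and above every control for MARCO (1.48 CPM against 0.846 to 1.03 CPM). For CD36, SCARB1 and PPARG overexpressing replicate 1 resembled the other overexpressing libraries.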
